A study of Mus musculus with 6 samples.

Results

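The 33 genes described here make nucleotides and supply their one-carbon units. They were found by symbol, and all 33 were present among the 23718 genes listed. By branch, 11 belong to purine synthesis, 5 to pyrimidine synthesis, 9 to the supply of deoxynucleotides and 8 to serine synthesis and the folate cycle. RNA was sequenced from laser-captured regions of the mouse incisor, a tooth that grows throughout life. There were 3 libraries from the mesenchymal stem cell (MSC) region and 3 from the transit amplifying cell (TAC) region. The paper places both regions in the incisor mesenchyme. The MSC region was captured as Gli1+ cells of Gli1-CreER;tdT mice and the TAC region as Axin2+ cells of Axin2-CreER;tdT mice. In both genotypes a tamoxifen-inducible Cre recombinase, expressed where Gli1 or Axin2 is active, switches on the red fluorescent protein tdTomato. All animals were 1 month old and had received tamoxifen the day before capture. The labels name no other allele in either group. The labels give the strain as C57BL/6 and the study's methods describe a mixed background. The methods give 3 mice per group without stating that each library is a separate mouse, so p-values measure only the spread between these libraries. The comparison asks how the stem cells differ from the dividing cells that descend from them.

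Cells build purines on a ribose phosphate scaffold and pyrimidines as a ring that is attached to the ribose later. Ribonucleotide reductase converts ribonucleotides into deoxynucleotides, the precursors of DNA, and thymidylate synthase makes the thymine nucleotide. One-carbon units carried on folate, mostly drawn from serine, enter both the purine ring and thymidylate. Proliferating cells are known for high use of these pathways, and several of the enzymes are regulated through the cell cycle.

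Levels are the deposited normalized values, in which a read number plus 1 was divided by a size factor for each library. Gene length was not divided out, so a level is read across libraries within a gene, and levels of different genes are not compared on this scale. Replicate 3 of both groups stood apart from replicates 1 and 2. It held an estimated 59793645 (MSC) and 108156380 (TAC) reads against 20203159 to 25567244 in the other 4 libraries. Mitochondrial ribosomal RNA took 0.236% and 0.112% of its reads against 8.28% to 9.07%. Of the listed genes, 43.1% in MSC replicate 3 and 28.3% in TAC replicate 3 had no read, against 6.89% to 8.36% in the others. Over the 33 genes the median distance between MSC replicates 1 and 2 was 0.16 on the log2 scale, whereas MSC replicate 3 lay a median of 1.02 from their mean. The corresponding distances in TAC were 0.09 and 0.50. In MSC replicate 3, 4 of the 33 genes (Tk1, Dck, Psat1 and Shmt1) had no read, which held for 21.4% of all genes tested. The driver genes overlapped between the groups. In replicates 1, 2 and 3 Gli1 stood at 256, 245 and 422 in MSC and at 153, 141 and 396 in TAC. It was higher in MSC in each same-numbered pair. Axin2 stood at 58.3, 48.0 and 12.01 in MSC and at 56.75, 63.9 and 34.1 in TAC, higher in TAC in replicates 2 and 3 only. Dental mesenchyme markers, apart from Barx1, had reads in every library, and their summed level over 14 genes was 3478 to 11256 in MSC and 9412 to 12580 in TAC. Gene by gene they lay lower in TAC, with a median difference of -0.53, 4 of 14 positive, and 4 higher in MSC against 1 in TAC at limma's unadjusted p-value of 0.05.

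Most of the 33 genes were measured at higher levels in TAC than in MSC. The difference was taken as TAC minus MSC on the scale log2(value + 1). It was positive for 30 of the 33 genes, against 51.5% of all genes tested, and its median was 1.09 against 0.03 over the 15391 genes tested. The 3 exceptions were Rrm2b, Prps1 and Ctps2. In 26 genes the lowest TAC library lay above the highest MSC library, against 12.3% of all genes tested, and in 1 gene, Rrm2b, all MSC libraries lay above all TAC libraries, against 12.2%. In every same-numbered pair of libraries 29 genes were higher in TAC, a pattern held by 24.6% of all genes tested. No single gene of the 33 passed limma's adjusted p-value of 0.05 in either direction, and 65 of all genes tested (0.422%) did. At an unadjusted p-value under 0.05, 17 genes were higher in TAC, where 5.42% of all genes tested were, and 1 was higher in MSC, where 6.43% were. All 33 genes passed the filter on low values, a mean of at least 1 over the 6 libraries.

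**Figure D1:**
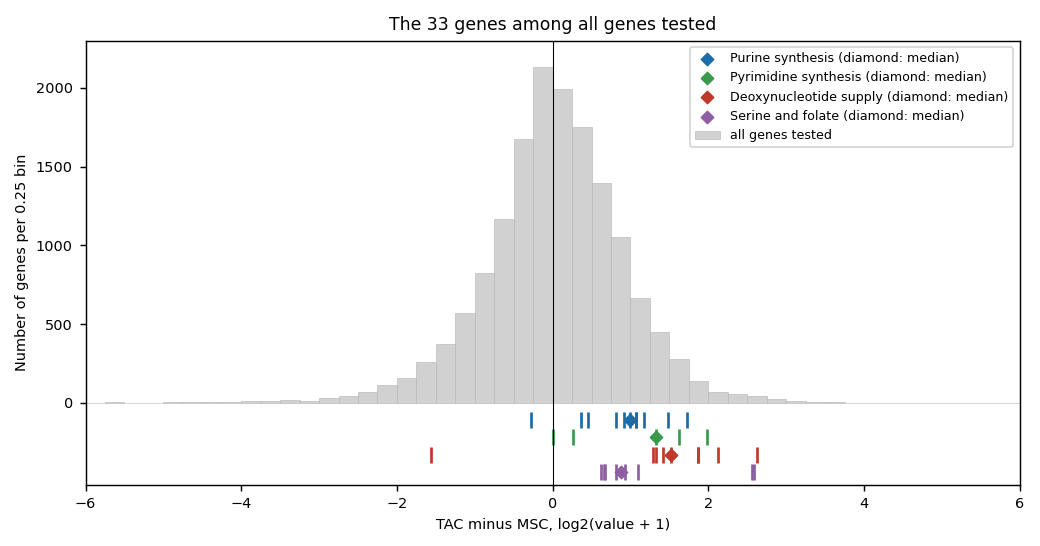
Histogram of the difference between TAC and MSC, as log2(value + 1) of TAC minus MSC, for the 15391 genes tested, in bins 0.25 wide, with a vertical tick under it for each of the 33 genes and a diamond for the median of each branch. The bulk of the histogram is centred near 0 (median 0.03), and 30 of the 33 ticks lie to the right of 0, with Rrm2b far to the left.

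The size of the difference and the number of calls depended on which libraries were used. Within replicates 1 and 2 of both groups the median difference of the 33 genes was 0.91, and within replicate 3, which has no replication and so no test, it was 1.38. Both library sets gave the same direction for 30 of the 33 genes, against 61.2% of all genes tested. In the fit of replicates 1 and 2 alone 27 genes were higher in TAC at an adjusted p-value under 0.05 and 1 (Rrm2b) was higher in MSC. That fit called 21.4% of all genes tested higher in TAC, and 47.4% in either direction. At the unadjusted threshold it gave 29 of the 33 genes and 24.1% of all genes tested higher in TAC. Leaving out MSC replicate 3 alone gave 20 genes at the unadjusted threshold (8.62% of all genes tested) and 1, Shmt1, at the adjusted threshold (adjusted p = 0.0424), which 0.612% of all genes tested passed as higher in TAC. Leaving out TAC replicate 1 or TAC replicate 2 gave 8 genes at the unadjusted threshold, where 2.61% and 2.64% of all genes tested were higher in TAC. With the replicate number as a block, 21 genes were higher in TAC at the unadjusted threshold (9.43% of all genes tested). None was higher in MSC, where 1684 of the 15391 genes tested were. None of the 33 passed the adjusted threshold in the blocked fit, which called 0.604% of all genes tested higher in TAC. By the blocked fit the smallest adjusted p-values were those of Impdh2 (0.0545) and Rrm1 (0.0565).

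**Figure D2:**
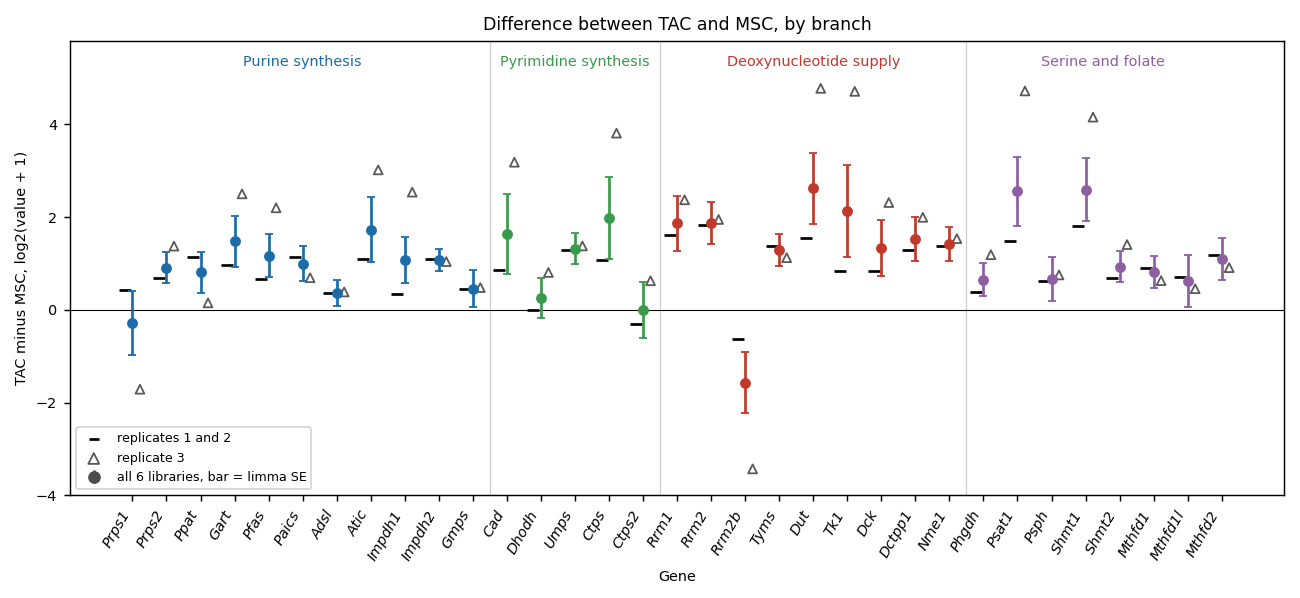
Difference between TAC and MSC on the log2(value + 1) scale for each of the 33 genes, grouped by branch. Filled circles are the difference over all 6 libraries with its limma standard error, dashes the difference within replicates 1 and 2, and open triangles that within replicate 3. The triangles of Dut, Tk1, Psat1 and Shmt1 lie above 4, and Rrm2b is below 0 in all 3 measures.

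The upstream sequences of 5 genes are shown, those whose 250 bases before a start lay clear of annotated exons and held a CCAAT box, a promoter element bound by the factor NF-Y. Of these genes Rrm1, Gart and Psat1 had a positive difference and Prps1 and Ctps2 did not. RefSeq windows on GRCm38.p6, running from 250 bases before to 50 bases after a transcript start, were matched for 30 of the 33 genes. Dhodh, Pfas and Rrm2b had no entry. The sequences give the 250 bases before the start, 5′ to 3′ on the coding strand, with CCAAT or its reverse complement ATTGG in capitals. The Psat1 and Ctps2 starts used lie within the deposited genes, between their annotated exons.
Rrm1, chr7:102441445-102441694, plus strand: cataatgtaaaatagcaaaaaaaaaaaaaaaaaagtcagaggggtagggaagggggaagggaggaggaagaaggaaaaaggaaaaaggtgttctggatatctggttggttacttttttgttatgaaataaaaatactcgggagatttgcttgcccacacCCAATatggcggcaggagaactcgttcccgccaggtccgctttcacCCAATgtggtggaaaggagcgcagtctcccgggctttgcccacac
Gart, chr16:91646973-91647222, minus strand: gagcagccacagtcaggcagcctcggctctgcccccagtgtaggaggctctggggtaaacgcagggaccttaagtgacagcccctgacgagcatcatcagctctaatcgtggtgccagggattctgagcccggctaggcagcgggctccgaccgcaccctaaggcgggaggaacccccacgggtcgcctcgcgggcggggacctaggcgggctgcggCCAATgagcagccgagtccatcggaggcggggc
Psat1, chr19:15925060-15925309, minus strand: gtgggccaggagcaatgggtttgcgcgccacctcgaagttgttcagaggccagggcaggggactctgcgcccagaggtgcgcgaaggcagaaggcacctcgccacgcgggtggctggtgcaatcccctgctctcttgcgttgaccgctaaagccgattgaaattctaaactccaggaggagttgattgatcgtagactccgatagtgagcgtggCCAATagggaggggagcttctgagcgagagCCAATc
Prps1, chrX:140456353-140456602, plus strand: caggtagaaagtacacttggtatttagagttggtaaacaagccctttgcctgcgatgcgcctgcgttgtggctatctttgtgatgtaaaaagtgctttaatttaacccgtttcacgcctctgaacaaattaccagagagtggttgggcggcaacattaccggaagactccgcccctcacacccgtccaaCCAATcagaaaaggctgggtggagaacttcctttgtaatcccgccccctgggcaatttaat
Ctps2, chrX:162901921-162902170, plus strand: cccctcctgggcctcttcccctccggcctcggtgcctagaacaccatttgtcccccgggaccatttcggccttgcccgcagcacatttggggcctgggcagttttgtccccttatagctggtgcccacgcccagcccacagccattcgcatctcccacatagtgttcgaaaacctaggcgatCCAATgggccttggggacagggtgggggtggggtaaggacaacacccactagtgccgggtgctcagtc

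CCAAT on either strand was present in the windows of 15 of the 30 genes, against 41.1% of the 27025 genes with a window. By branch it was present in 6 of 8 serine and folate genes, 5 of 10 purine genes, 3 of 8 deoxynucleotide genes and 1 of 4 pyrimidine genes. The E-box CACGTG was present in 5 of 30 genes against 8.09% of all, and the E2F-type sequences TTTCCCGC, TTTGGCGC or TTTCGCGC in 2 of 30 (Ppat and Prps2) against 2.12%. TGATGNAAT, a form of the element bound by ATF4, was in none of the 30 and in 1.08% of all genes. None of these motifs contains another. A match is a description of the sequence, and binding was not measured.

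The 9 genes of deoxynucleotide supply showed the largest median difference of the branches, 1.52 against 0.03 over all genes tested. At the unadjusted threshold 6 were higher in TAC (5.42% of all genes tested) and 1, Rrm2b, in MSC (6.43%), and none passed the adjusted threshold (0.422%). Values are given below in the order of replicates 1, 2 and 3. Rrm1, the large catalytic subunit of ribonucleotide reductase, stood at 17.5, 15.8 and 3.89 in MSC and at 52.9, 52.5 and 24.3 in TAC. The groups did not overlap, and replicate 3 was the lowest library of each group. The ratio of the means was 3.49 and the log2 difference 1.86 ± 0.60 (limma SE, n = 3 per group, adjusted p = 0.280).

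Rrm2, the small subunit made in S phase, stood at 5.73, 2.49 and 2.87 in MSC and at 16.5, 16.0 and 13.9 in TAC. Every TAC library was above every MSC library, and the log2 difference was 1.87 ± 0.45 (adjusted p = 0.164). The library sets gave 1.83 (replicates 1 and 2) and 1.95 (replicate 3). Rrm2b encodes the alternative small subunit, which serves DNA repair and mitochondrial DNA outside S phase. Its order was the opposite, with 7.95, 7.59 and 17.8 in MSC and 3.88, 5.51 and 0.747 in TAC. The log2 difference was -1.57 ± 0.66 (adjusted p = 0.415), and it was -0.64 within replicates 1 and 2 and -3.43 within replicate 3. The unadjusted p-value of Rrm2b, 0.0482, became 0.0811 with the replicate block, and without TAC replicate 3 its difference was -1.004.

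Tyms, thymidylate synthase, stood at 8.21, 7.50 and 6.82 in MSC and at 22.6, 21.2 and 16.1 in TAC. These values did not overlap and differed by 1.29 ± 0.35 (adjusted p = 0.194). Dut, the enzyme that removes dUTP and yields the substrate of thymidylate synthase, was at 9.14, 5.48 and 0.293 in MSC and at 23.2, 22.01 and 34.4 in TAC. The log2 difference of Dut, 2.62 ± 0.77 (adjusted p = 0.238), was the largest of the 33 genes over all 6 libraries with a pseudocount of 1. Replicates 1 and 2 alone gave 1.54 for Dut, less than for Rrm2, Shmt1 and Rrm1, and replicate 3 gave 4.77. Leaving out MSC replicate 3 gave 1.74. Tk1, the S-phase thymidine kinase of salvage, was at 13.2 and 12.5 in MSC replicates 1 and 2, had no read in MSC replicate 3, and was at 23.7, 23.6 and 25.3 in TAC. For Tk1 the log2 difference was 2.12 ± 0.99 over all libraries (adjusted p = 0.464) and 0.86 without MSC replicate 3.

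The remaining members of the branch were also higher in every TAC library. Dck, deoxycytidine kinase, was low throughout, at 1.95 and 1.74 in MSC replicates 1 and 2, without a read in MSC replicate 3, and at 4.75, 3.45 and 4.003 in TAC. Its log2 difference was 1.33 ± 0.60 (adjusted p = 0.450), and 0.83 without MSC replicate 3. Dctpp1, a pyrophosphatase that clears dCTP and modified forms of it, stood at 3.25, 2.14 and 2.28 against 7.27, 8.63 and 12.1. The difference for Dctpp1 was 1.52 ± 0.47 (adjusted p = 0.264). Nme1, a nucleoside diphosphate kinase that makes triphosphates from diphosphates, stood at 5.78, 8.34 and 8.76 against 19.7, 19.4 and 27.3, a log2 difference of 1.42 ± 0.36 (adjusted p = 0.179).

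**Figure D3:**
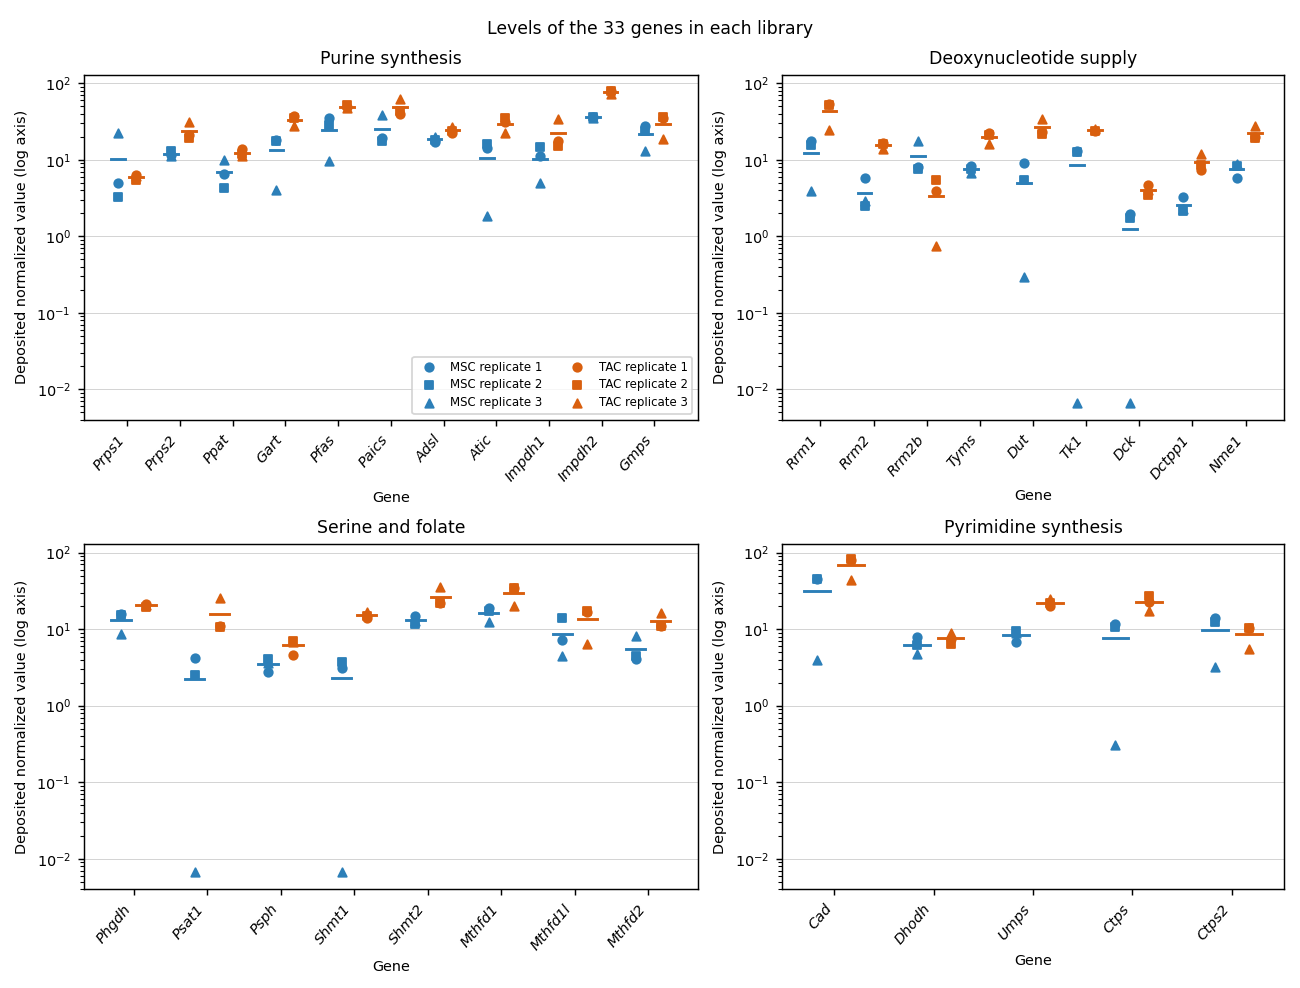
Deposited normalized values of the 33 genes in each library, on a log axis, in 4 panels by branch; blue is MSC, orange is TAC, the marker shape gives the replicate and the short bars are group means. Triangles of MSC replicate 3 fall far below its group for Tk1, Dck, Psat1 and Shmt1, which had no read there, and for Dut and Ctps.

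The 11 purine genes had a median difference of 1.00, with 10 positive, 9 without overlap between the groups (12.3% of all genes tested) and 6 past the unadjusted threshold (5.42%). Prps1 and Prps2 make the activated ribose phosphate that the pathway starts from. Prps2 stood at 11.6, 13.1 and 11.3 in MSC and at 21.4, 19.4 and 30.9 in TAC, a log2 difference of 0.91 ± 0.33 (adjusted p = 0.340). Prps1 stood at 5.04, 3.22 and 22.2 in MSC and at 6.28, 5.43 and 6.08 in TAC. The groups of Prps1 overlapped because of MSC replicate 3, and the log2 difference of -0.28 ± 0.69 (adjusted p = 0.929) was 0.45 without that library.

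The enzymes that build the ring were all higher in TAC in every same-numbered pair. Ppat catalyses the committed step and stood at 6.45, 4.25 and 10.04 in MSC and at 13.7, 11.9 and 11.3 in TAC (log2 difference 0.81 ± 0.44, adjusted p = 0.532). Gart, a trifunctional enzyme that uses folate-borne carbon, stood at 18.3, 17.7 and 4.07 against 37.8, 34.6 and 27.7 (1.48 ± 0.56, adjusted p = 0.353). Pfas, which adds an amide nitrogen, was at 35.1, 28.6 and 9.71 against 49.6, 51.3 and 48.1 (1.17 ± 0.47, adjusted p = 0.391). In Gart and Pfas the MSC group was spread widely by replicate 3, while the TAC libraries varied less. Paics, a bifunctional enzyme of the middle steps, was at 19.2, 17.6 and 38.2 against 40.2, 43.9 and 62.4 (1.00 ± 0.38, adjusted p = 0.361). With the replicate block the adjusted p-value of Paics was 0.0920. Adsl, adenylosuccinate lyase, was at 17.1, 18.3 and 20.0 against 22.3, 23.7 and 26.5, with the smallest positive difference of the purine genes (0.37 ± 0.28, adjusted p = 0.676). Atic, which performs the last steps to inosine monophosphate, was at 14.1, 15.9 and 1.86 against 31.1, 34.8 and 22.2 (1.73 ± 0.70, adjusted p = 0.391). Without MSC replicate 3 the differences were 0.84 for Gart, 0.63 for Pfas and 0.90 for Atic.

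In the guanine arm of the pathway Impdh2 was higher in TAC by a value that varied little between replicates. Impdh2, an inosine monophosphate dehydrogenase and the rate-limiting enzyme of guanine nucleotide synthesis, stood at 36.2, 36.5 and 34.7 in MSC and at 78.7, 78.1 and 72.4 in TAC. Its ratio of means was 2.13 and its log2 difference 1.07 ± 0.23, with the smallest adjusted p-value of the 33 genes (0.139). The value was nearly equal in both library sets, 1.09 in replicates 1 and 2 and 1.04 in replicate 3. Impdh1, its isozyme, stood at 11.2, 14.5 and 5.03 against 17.7, 15.3 and 34.01. The log2 difference of Impdh1 was of the same size, 1.07 ± 0.50 (adjusted p = 0.463), but 0.34 in replicates 1 and 2 and 2.54 in replicate 3. Gmps, which completes guanosine monophosphate, stood at 27.2, 23.99 and 13.2 against 34.7, 35.8 and 18.8, and its groups overlapped (0.46 ± 0.41, adjusted p = 0.717). The difference of Gmps was 0.16 without MSC replicate 3, 0.30 without TAC replicate 2 and 0.75 without TAC replicate 3, and that of Impdh1 was 0.68 without MSC replicate 3.

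Pyrimidine synthesis had a median difference of 1.32 over 5 genes, which was 0.55 without MSC replicate 3. At the unadjusted threshold 1 gene, Umps, was higher in TAC (5.42% of all genes tested), and with the replicate block 3 were (9.43%). Cad, the trifunctional enzyme that opens the pathway, stood at 44.6, 45.8 and 3.95 in MSC and at 81.2, 83.8 and 43.9 in TAC. The groups touched, since TAC replicate 3 lay below MSC replicates 1 and 2, although TAC was higher in each same-numbered pair (1.63 ± 0.86, adjusted p = 0.522). Without MSC replicate 3 the difference of Cad was 0.55. Dhodh, the mitochondrial step, stood at 7.86, 6.23 and 4.71 against 7.42, 6.47 and 8.98, with overlapping groups and a log2 difference of 0.26 ± 0.43 (adjusted p = 0.884) that ranged from 0.10 to 0.42 when a library was left out. Umps makes uridine monophosphate, and stood at 6.74, 9.49 and 8.82 against 20.0, 22.2 and 24.5. Its groups were well separated, and the difference was 1.32 ± 0.33 (adjusted p = 0.179). Replicates 1 and 2 gave 1.29 and replicate 3 gave 1.38.

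Both forms of CTP synthase, which converts UTP to CTP, were measured. Ctps stood at 11.8, 10.8 and 0.306 in MSC and at 22.6, 27.4 and 17.3 in TAC. All TAC libraries were above all MSC libraries, and the log2 difference of 1.99 ± 0.88 (adjusted p = 0.440) was 0.91 without MSC replicate 3. Ctps2 stood at 13.9, 12.4 and 3.25 against 10.4, 10.4 and 5.56. Its difference was -0.00057 ± 0.60 (adjusted p = 1.00), with TAC below MSC in replicates 1 and 2 (-0.31) and above it in replicate 3 (0.63).

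The 8 genes of serine synthesis and the folate cycle were all higher in TAC in each same-numbered pair, with a median difference of 0.87, 7 without overlap (12.3% of all genes tested) and 4 past the unadjusted threshold (5.42%). Of the serine pathway, Phgdh, the first enzyme, stood at 15.6, 15.2 and 8.55 in MSC and at 21.6, 19.4 and 20.8 in TAC (0.65 ± 0.35, adjusted p = 0.534, and 0.39 without MSC replicate 3). Psat1, the aminotransferase of the next step, was at 4.16 and 2.49 in MSC replicates 1 and 2, had no read in MSC replicate 3, and was at 11.04, 10.6 and 25.5 in TAC. The log2 difference of Psat1 was 2.56 ± 0.74 (adjusted p = 0.229), and 1.86 without MSC replicate 3. Psph, the phosphatase that releases serine, stood at 2.78, 4.04 and 3.57 against 4.63, 7.06 and 6.70 (0.67 ± 0.47, adjusted p = 0.644). Phgdh and Psph thus differed less than Psat1, and all 3 lay above their MSC levels in every TAC library.

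The folate enzymes act in the cytosol (Shmt1 and Mthfd1) or in mitochondria (Shmt2, Mthfd2 and Mthfd1l). Shmt1, which takes a one-carbon unit from serine and also serves thymidylate synthesis, was at 3.14 and 3.72 in MSC replicates 1 and 2, had no read in MSC replicate 3, and was at 14.0, 14.9 and 16.9 in TAC. Its log2 difference of 2.59 ± 0.68 (adjusted p = 0.188) was 1.805 within replicates 1 and 2. Shmt1 was the gene that passed the adjusted threshold under the most alternatives, 3 in all. Mthfd1, the trifunctional cytosolic enzyme, stood at 19.0, 17.2 and 12.5 against 34.7, 34.9 and 20.0 (0.82 ± 0.35, adjusted p = 0.431). Among the mitochondrial enzymes, Shmt2 stood at 14.8, 11.7 and 12.8 against 22.1, 21.7 and 35.5 (0.93 ± 0.34, adjusted p = 0.338). Mthfd2 stood at 4.05, 4.46 and 8.17 against 10.9, 10.98 and 16.2 (1.09 ± 0.45, adjusted p = 0.399). Mthfd1l, which releases formate to the cytosol, stood at 7.22, 13.9 and 4.45 against 16.6, 17.5 and 6.47, and its groups overlapped (0.62 ± 0.57, adjusted p = 0.726). The difference of Mthfd1l ranged from 0.28 without MSC replicate 3 to 1.05 without TAC replicate 3.

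Pairs of enzymes with the same activity were compared by their log2 ratio within each library, on the log2(value + 1) scale, as a description with no test. Because length was not divided out, the ratio itself has no meaning as a balance of molecules, and only its change between libraries is described. Rrm2 over Rrm2b was -0.41, -1.30 and -2.28 in MSC and 1.85, 1.38 and 3.09 in TAC. This was the largest shift of the 5 pairs, from a mean of -1.33 ± 0.93 (SD, n = 3) to 2.11 ± 0.89, and the groups did not overlap. Ctps over Ctps2 moved from -0.70 ± 0.86 to 1.28 ± 0.22 and Shmt1 over Shmt2 from -2.38 ± 1.23 to -0.72 ± 0.27, both without overlap. Shmt1 had no read in MSC replicate 3, and without that library its shift was 0.96 in place of 1.66. The shift of Ctps over Ctps2 was then 1.49 in place of 1.99, and that of Rrm2 over Rrm2b 2.96 in place of 3.44. Prps1 over Prps2 (-0.63 ± 1.38 and -1.82 ± 0.31) and Impdh1 over Impdh2 (-1.81 ± 0.67 and -1.81 ± 0.65) overlapped between the groups, and without MSC replicate 3 their shifts were -0.42 in place of -1.19 and -0.37 in place of 0.0018.

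**Figure D4:**
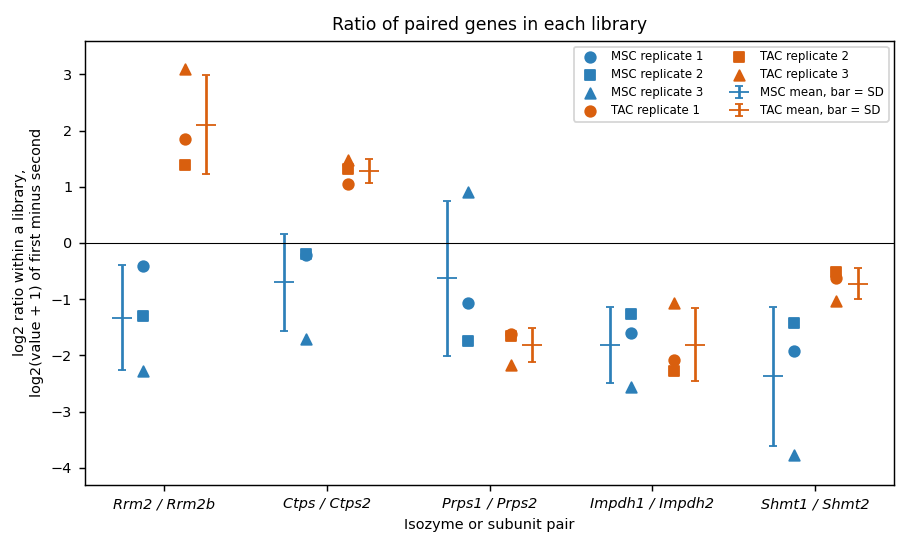
Log2 ratio of 5 pairs of isozymes or alternative subunits within each library, as log2(value + 1) of the first gene minus that of the second, with the group mean and SD (n = 3) beside the points. Rrm2 over Rrm2b is higher in every TAC library than in any MSC library, and the ratio of Impdh1 to Impdh2 overlaps between the groups. Gene length was not divided out, so the position of a point above or below 0 has no meaning as a balance.

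Levels between genes were compared only after dividing each value by the length of the gene's joined exons in GENCODE M21, as normalized value per kilobase. On that scale Impdh2 was the highest of the 33 genes in every TAC library, with a mean of 24.8, and Paics was the next, with 15.6. By the TAC means these were followed by Dctpp1 (13.8) and Dut (11.003), and Rrm2b was the lowest at 0.370. The order in MSC differed between libraries. Impdh2 was the highest in MSC replicates 1 and 2 (11.8 and 11.9), followed by Phgdh (6.28 and 6.11). In MSC replicate 3 Paics was above it, at 12.2 against 11.3. Dut stood at 3.79, 2.27 and 0.122 in MSC on this scale. Exon lengths are of all annotated transcripts joined and may exceed those in use.

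Of the 49 other genes of nucleotide salvage, nucleotide kinases and phosphatases, folate and methyl cycles and transport, 42 passed the filter on low values. Their median difference was 0.41, lower than that of the 33 genes, and no direct test of that contrast was made. None passed the adjusted threshold (0.422% of all genes tested), and at the unadjusted threshold 6 were higher in TAC (5.42%) and 1 in MSC (6.43%). The largest of these over all 6 libraries was Ahcy, which hydrolyses the by-product of methyl transfer, with 13.4, 11.1 and 0.0101 in MSC and 28.1, 27.9 and 30.1 in TAC (2.40 ± 0.98, adjusted p = 0.396). Uck2, the uridine and cytidine kinase of salvage, stood at 13.9, 16.6 and 6.05 against 44.0, 41.0 and 40.9 (1.81 ± 0.40, adjusted p = 0.144). Both had every TAC library above every MSC library. In replicates 1 and 2 the difference of Ahcy was 1.13, less than the 1.42 of Uck2 and the 1.17 of Dtymk, and in replicate 3 it was 4.94. Dtymk, thymidylate kinase, followed with 1.63 ± 0.39 (adjusted p = 0.167), then Gcsh of the glycine cleavage system with 1.53 ± 0.55 (adjusted p = 0.340). The difference of Gcsh was 0.83 in replicates 1 and 2 and 2.93 in replicate 3. Amt, another component of glycine cleavage, was higher in MSC, at 10.6, 11.2 and 19.2 against 3.57, 2.81 and 8.31 (-1.38 ± 0.52, adjusted p = 0.353).

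Other gene lists moved with the same contrast. All 13 proliferation genes were higher in TAC by the mean difference, with a median of 2.12, and 12 passed the unadjusted threshold (5.42% of all genes tested). In limma 1, Cdk1, passed the adjusted threshold (2.62 ± 0.35, adjusted p = 0.0390), which 0.422% of all genes tested did in either direction. With the replicate block 5 did (0.604% higher in TAC). In 10 the groups did not overlap (12.3%). Mki67, Ccna2 and Pcna overlapped, and in replicate 3 Ccna2 was at 25.2 in MSC and 21.1 in TAC. The summed level of these genes was 167 to 265 in MSC and 492 to 1255 in TAC, and Bub1 and Aurkb had no read in MSC replicate 3. Smooth muscle markers went the other way. Their summed level over 8 genes was 738 to 1511 in MSC and 84.2 to 87.9 in TAC. Of 7 tested genes 5 passed the adjusted threshold (0.422% of all genes tested), and Cnn1 and Des had no read in some library. Endothelial markers summed to 231 to 247 in MSC and 75.6 to 101 in TAC over 7 genes. None passed the adjusted threshold, and 3 were higher in MSC at the unadjusted one (6.43% of all genes tested). With the replicate block 1 was higher in MSC at the adjusted threshold, where 136 of the 15391 genes tested were. Schwann cell markers summed to 107 to 296 in MSC and 42.8 to 99.4 in TAC over 6 genes, with Sox10 and S100b without a read in some library. Odontoblast markers ranged from 811 to 5333 in MSC and from 4506 to 4849 in TAC, dental epithelial markers from 299.7 to 3665 and from 2154 to 3353, macrophage markers from 78.4 to 193 and from 43.2 to 129, and red cell markers from 37.2 to 79.0 and from 56.3 to 76.3, all with overlapping sums. Gene by gene, however, all 10 dental epithelial markers had a positive difference, with a median of 1.01, 7 higher in TAC in each same-numbered pair and 4 without overlap, and Cdh1, Epcam, Shh and Trp63 were among those with no read in some library. All 7 odontoblast markers were positive too, with a median of 0.86 and 4 higher in TAC in each pair, and Dmp1, Ibsp and Gsc had no read in some library. None of either list passed the adjusted threshold in limma, and 1 of each was higher in TAC at the unadjusted one. Macrophage markers were positive in 1 of 7 genes, with a median of -0.36, and 4 were lower in TAC in each pair. In 2 of the macrophage markers all MSC libraries lay above all TAC libraries, against 12.2% of all genes tested. The part of dividing cells, of these other cell types and of the library sets in the values of the 33 genes was not tested. In captured regions, fewer cells that use a gene and less RNA of it per cell cannot be told apart.

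Counting may also have mixed some of these genes with neighbours or copies, because the use of strand was not stated. In the annotation 20 of the 33 genes overlap another gene, and 15 share a stretch of at least 75 bases, at 98% identity or more, with the transcript of another gene. Paics and Ppat lie head to head on opposite strands of chromosome 5 and share 272 bases, so their values may not be fully separate. Impdh2 (chr9:108560286-108565584, plus strand) shares 1545 bases with its pseudogene Impdh2-ps, and Phgdh shares 1597 bases with Gm7901, whose listed level was 0.0067 to 3.24. Nme1 (chr11:93956979-93968521, minus strand) overlaps the protein-coding gene Gm20390 on the same strand along most of its length, and that gene was listed at 5.81, 3.78 and 16.4 in MSC and 4.49, 9.01 and 1.17 in TAC. Shmt1 (chr11:60788104-60811718, minus strand) shares 184 bases with Smcr8 on the opposite strand, listed at 28.1, 18.9 and 0.0067 in MSC and at 20.1, 20.4 and 8.45 in TAC. Psph shares 452 bases with Cct6a on the opposite strand, listed at 32.1, 30.9 and 102.2 in MSC and at 66.7, 75.05 and 59.9 in TAC. Tk1 (chr11:117815526-117826092, minus strand) lies within Gm20708 on the opposite strand, which was listed at 3.45, 0.486 and 4.54 in MSC and at 0.133, 0.363 and 0.0853 in TAC. For Rrm1 (chr7:102441695-102469771, plus strand), Dut (chr2:125247190-125258608, plus strand) and Dctpp1 (chr7:127256959-127260709, minus strand) no such stretch was found, although Rrm1 overlaps Gm45399 on the same strand by 1016 bases, a gene listed at 0.0038 to 2.61. Rrm2 (chr12:24708241-24714146, plus strand) and Rrm2b (chr15:37923952-37961318, minus strand) share stretches with Gm48445 and with the antisense gene Gm49085. Positions are those of GENCODE M21 on the mm10 assembly.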

How the data were processed

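RNA from 3 MSC and 3 TAC captures was sequenced as single-end reads, which the authors trimmed and aligned to mm10 with TopHat2 2.0.8; the submitters' processing notes also name CASAVA 1.8.2 and Partek. The methods describe RPKM. The deposited values were instead a signal in which the authors had added 1 to a read number and divided by a size factor for each library. Reads recovered by dividing by the lowest value of a library and subtracting 1 were whole, within 0.02 reads, for 77.2% to 95.1% of values under 30 reads, so no count model was used. How reads were assigned to genes, and whether strand was used, is not given in the sources used here. Depth ranged from 20203159 to 108156380 estimated reads per library. Every listed gene reached at least 10 reads in some library.

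Samples were grouped by their titles. Values were taken as log2(value + 1), which understates the change of low genes, and limma 3.58.1 in R 4.3.3 (lmFit, then eBayes with trend) was run on the 15391 genes whose mean reached 1. TAC minus MSC was tested two-sided, with Benjamini-Hochberg adjustment over all genes tested and a threshold of 0.05. The unadjusted level of 0.05, named in the study's methods, was counted too. The fit was tested on simulated data, drawn with the same dispersion for every gene and no separate shift of replicate 3. The planned test assumed RPKM and was kept for this unit, and its suitability for these libraries was not tested. The members and lists were chosen with earlier results of these data known. All members were named. Other pathway genes were named if under the unadjusted threshold, at most the 5 with the largest difference in each direction, and 1 of these is not reported here. The 5 isozyme pairs and the promoter motifs were chosen from general knowledge, and a planned search of proteins for a motif was not run.

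Same-numbered libraries deviated from their group means with correlations across genes of 0.477, 0.465 and 0.517, so the numbers in the labels were taken as pairs for a blocked fit. MSC replicate 2 with TAC replicate 1 (0.480) and MSC replicate 1 with TAC replicate 2 (0.462) deviated alike too, so what the pairs share is replicate 3 against replicates 1 and 2. Alternatives were other pseudocounts, filters, scalings and variance models, the block, replicates 1 and 2 alone, and each library left out. The isozyme ratios without MSC replicate 3 were added after seeing the data. Promoters were from RefSeq and positions from GENCODE M21, whose gene starts matched the deposited ones for 33 of 33 genes.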

Additional observations from a re-analysis of the deposited data

How the results depend on the processing

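Over the 33 genes and 15 alternatives, 446 values kept their direction and their side of the adjusted threshold, 30 passed it only under the alternative and 7 changed sign. The sign changes were in genes with a difference near 0. Prps1 was 0.44 in replicates 1 and 2, and it ranged from -0.77 to 0.45 when a library was left out. Dhodh was -0.013 in replicates 1 and 2. Ctps2 was 0.027 with a pseudocount of 0.1, and ranged from -0.58 to 0.33 when a library was left out (0.25 without MSC replicate 2 and 0.26 without TAC replicate 3). The replicate block raised the genes called among all tested from 65 to 229 and changed no call of the 33 genes at the adjusted threshold. At the unadjusted threshold it gave 21 of the 33 genes higher in TAC (9.43% of all genes tested). It gave 0 of the 33 higher in MSC, where 1684 of the 15391 genes tested were.

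Genes called over the whole table numbered 38 with a pseudocount of 0.1, 114 with quantile normalization, 29 without the variance trend, 7433 in replicates 1 and 2 alone, and 0 to 280 when a library was left out. Of the 33 genes, 1 (Shmt1) was called higher in TAC with quantile normalization, where 27 of the 15391 genes tested were. In replicates 1 and 2 the count was 27, where 21.4% of all genes tested were called higher in TAC. It was 0 to 1 when a library was left out, the 1 being Shmt1 without MSC replicate 3 (0.612% of all genes tested). Those called higher in MSC numbered 1 in replicates 1 and 2, in a fit that called 47.4% of all genes tested in either direction. At the unadjusted threshold 29 were higher in TAC in replicates 1 and 2 (24.1% of all genes tested), and 8 to 20 when a library was left out (2.61% of all genes tested without TAC replicate 1, 2.64% without TAC replicate 2 and 8.62% without MSC replicate 3). The 1 gene higher in MSC at that threshold (Rrm2b) became 0 with a pseudocount of 0.1, with no filter and with the block, was not tested under the filter at a mean of at least 10 (also 0), and gave 0 to 1 when a library was left out. Other pathway genes called numbered 23 in replicates 1 and 2, in a fit that called 47.4% of all genes tested, and 0 to 1 when a library was left out. The purine median was 0.68 in replicates 1 and 2, and the pyrimidine median ranged from 0.55 to 1.41 when a library was left out. Where leaving out a library left 2 in a group, the spread was pooled over both groups. The filter at a mean of at least 10 left 21 of the 33 genes.

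The 27 calls in replicates 1 and 2 rest on 2 libraries per group that lie close together, and replicate 3 lies far from them in both groups. The cause of the change in calls was not tested. Genes without a read in MSC replicate 3 have differences that depend on the pseudocount (Shmt1 3.80 with 0.1 and 1.51 with 5, against 2.59).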
